A study of Mus musculus with 6 samples.

Results

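The prostaglandin and leukotriene enzymes were followed in anti-inflammatory M2 macrophages (Mφs) through 10 genes, Ptgs1, Ptgs2, Ptges, Hpgds, Tbxas1, Alox5, Alox5ap, Alox15, Lta4h and Ltc4s. They were taken by symbol, as enzymes of the pathway, and all 10 were found among the 41549 genes listed. Of these, 9 passed the filter on low counts that left 11933 genes for the test, and Alox15 did not. The C57Bl/6 N mice were aged 10-12 weeks by the methods of the study, while its reporting summary gives an older range and both sexes. The cells were wild-type Mφs differentiated from the bone marrow of these mice, using M-CSF for 7 days. They were transfected with an antisense oligonucleotide (ASO) that targets the tRNA-derived fragment 5′tRF-Glu(CTC), named αGlu, or with a control ASO, named Ctr. Cells of both groups were then polarized with IL-4 and IL-13, each at 10 ng/ml, for 48 h, and mRNA was sequenced in 3 libraries a group. The study calls the 3 of each group independent experiments, whereas the labels only number them, so the spread between libraries may in part be technical.

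Eicosanoids are oxygenated lipids made from arachidonic acid, which phospholipases release from membranes. The cyclooxygenases encoded by Ptgs1 and Ptgs2 turn it into prostaglandin H2, which terminal synthases convert to prostaglandin E2 (Ptges), prostaglandin D2 (Hpgds) or thromboxane A2 (Tbxas1). In the other branch the 5-lipoxygenase of Alox5, helped by the membrane protein of Alox5ap, makes leukotriene A4, which the products of Lta4h and Ltc4s convert to leukotriene B4 and leukotriene C4. In Mφs, Ptgs1 is usually expressed without stimulation and Ptgs2 is a classical gene of inflammatory activation, while Alox15 is known as a target of IL-4 and IL-13 in human monocytes and in some mouse Mφs.

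The agent that separates the groups is given here with its target, because every comparison rests on it. Capitals mark the bases that pair, which are all 20 bases of the ASO and bases 2 to 21 of the target as the study lists it.
αGlu ASO: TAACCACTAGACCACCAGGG
5′tRF-Glu(CTC) target: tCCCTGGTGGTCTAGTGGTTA
The sequence of the Ctr ASO was not used here, and the fragment itself was not analysed here.

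The libraries of the αGlu group were unlike each other, which bears on every value below. Total counts were between 17912831 and 30386653 reads per library. Over the genes tested, log2 CPM, the counts of a gene scaled to a common library size, of αGlu 2 and αGlu 3 correlated at a Pearson r of 0.992. αGlu 1 reached 0.929 with each of those but 0.966 to 0.982 with Ctr libraries. The fold change of each member tested is therefore given with all libraries and without αGlu 1. For the wider pathway this holds for the counts of calls and for some genes only. αGlu 1 was set apart because of these same data, and leaving it out lowers the spread within αGlu. The adjusted p values and calls without it are therefore descriptive and are no measure of error. Markers of Mφs, such as Lyz2, were high in both groups, with 8 of 8 above 1 CPM on average and a summed level of 11849 to 13404 CPM in Ctr and 12594 to 18784 CPM in αGlu. Markers of the response to IL-4 and IL-13 summed to 3540 to 5672 CPM in Ctr and 4642 to 5347 CPM in αGlu, but Chil3 and Mrc1 carried most of that sum and single genes differed widely. Retnla was at 540, 245 and 289 CPM in Ctr 1, 2 and 3 and at 101, 0.0315 and 0.0367 CPM in αGlu 1, 2 and 3, and Mgl2, Irf4, Ccl22 and Tfrc were also lower in αGlu, with no overlap between the groups. Ccl24 and Mrc1 were instead higher in αGlu 2 and 3 alone. Ccl24 reached 9.07 and 16.2 CPM there, and no other library passed 0.636 CPM. Mrc1 reached 1512.5 and 2379 CPM there, above the Ctr maximum of 948 CPM, with αGlu 1 inside the Ctr range. The groups overlapped for Chil3, Pdcd1lg2 and Clec10a, and Ccl17 was lower in αGlu, at under 1 CPM in every library. The part of these response genes in the values of the enzymes was not tested.

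With all 6 libraries, none of the 9 members tested was called by edgeR's quasi-likelihood test, where a call takes a Benjamini-Hochberg adjusted p under 0.1 together with a log2 fold change beyond 1 in either direction. None of the 11933 genes was either (0%). At an unadjusted p under 0.05, 3 members were higher in αGlu (Ptgs2, Ptges and Ltc4s), against 12.7% of all genes tested, and 1 was lower (Lta4h), against 11.9%. Without αGlu 1, 6 of the 9 members were called. Ptgs2, Ptges and Ltc4s were higher, where 8.05% of 12340 genes were called higher, and Ptgs1, Hpgds and Tbxas1 were lower, where 10.5% were called lower. With all libraries, DESeq2 called Ptgs2, Ptges and Ltc4s higher, against 4.21% of 13742 genes, and no member lower, against 3.92%. The median log2 fold change of the members tested was -0.36, beside 0.02 over all genes tested.

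**Figure D1:**
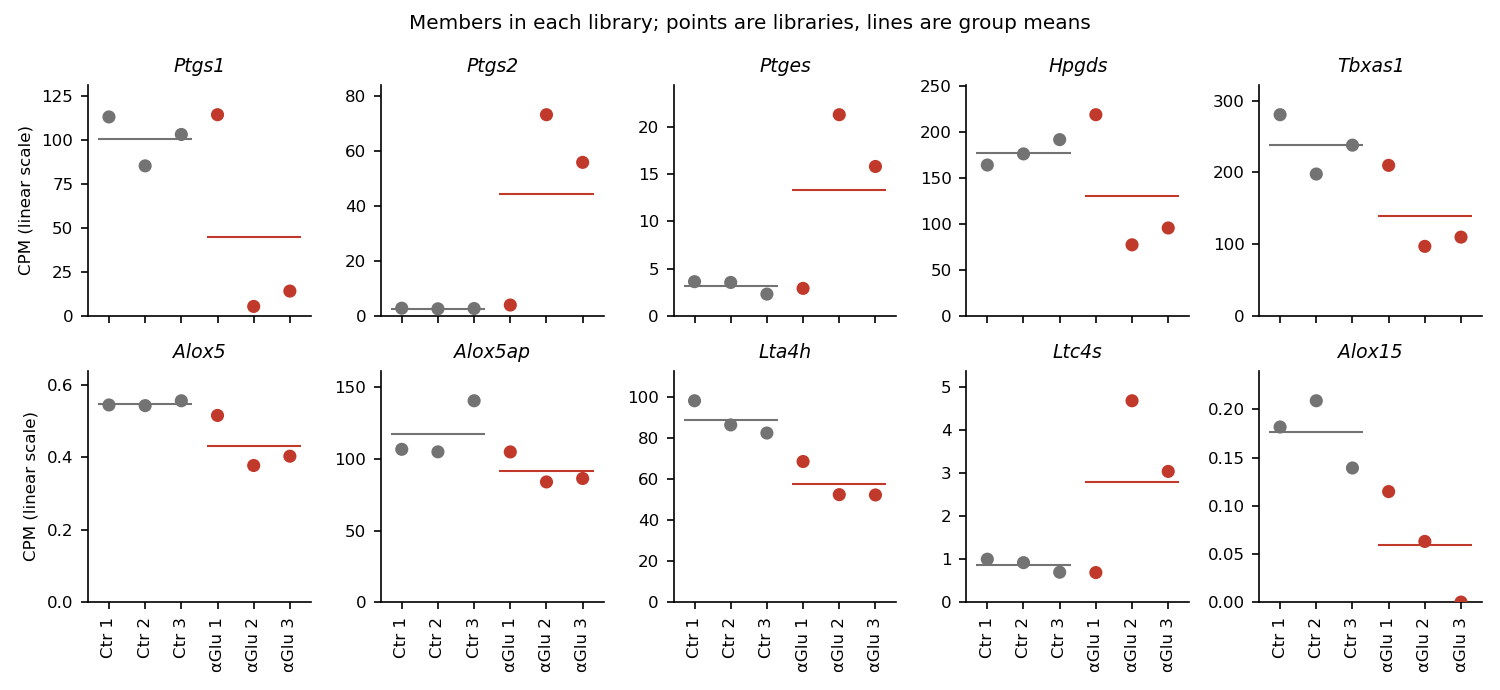
Each panel plots the CPM of a gene (linear axis from 0, a scale of its own per panel) in the 3 Ctr libraries (grey points) and the 3 αGlu libraries (red points), with a line at each group mean. Ptgs2 was at 2.63 to 4.01 CPM in Ctr and αGlu 1 and at 73.3 and 55.9 CPM in αGlu 2 and 3, while Ptgs1 showed the opposite arrangement.

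The members that differed most between αGlu 2 or 3 and the Ctr libraries were the cyclooxygenases. Ptgs2 (ENSMUSG00000032487, chr1:150100031-150108227, + strand, GRCm38) encodes the inducible isoform. Its level was 2.86, 2.63 and 2.74 CPM in Ctr 1, 2 and 3, and 4.01, 73.3 and 55.9 CPM in αGlu 1, 2 and 3. All αGlu libraries lay above all Ctr libraries, but αGlu 1 only just, and from few reads. It held 70 reads, for an exact 95% Poisson interval of 3.13 to 5.07 CPM, against an interval of 2.20 to 3.66 CPM for the 63 reads of Ctr 1, and such intervals cover counting error only. The group means were 2.74 ± 0.115 CPM in Ctr and 44.4 ± 36.0 CPM in αGlu (SD, n = 3). The log2 fold change was 4.02 ± 1.002 (SE), with an adjusted p of 0.156 in edgeR's quasi-likelihood test. Without αGlu 1 it was 4.55 ± 0.14 (adjusted p = 1.36e-05, edgeR), and the mean of αGlu 2 and 3 was 23.5 times that of Ctr. DESeq2 with all libraries gave 4.01 ± 0.81 (adjusted p = 9.55e-05).

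Ptgs1 (ENSMUSG00000047250, chr2:36230426-36252272, + strand) encodes the constitutive isoform and differed in the other direction in the same libraries. It was at 113, 85.4 and 103 CPM in Ctr 1, 2 and 3, and at 114, 5.48 and 14.2 CPM in αGlu 1, 2 and 3. Here αGlu 1 was the highest of the 6 libraries and αGlu 2 and 3 the lowest. The Ctr mean was 10.2 times the mean of αGlu 2 and 3. With all libraries the log2 fold change was -1.18 ± 1.04 (adjusted p = 0.484, edgeR quasi-likelihood), so the difference between groups was within the spread of αGlu. Without αGlu 1 it was -3.37 ± 0.40 (adjusted p = 0.00122). In bulk samples like these, fewer cells with a transcript and less of it per cell cannot be told apart, here and for every gene below.

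The 2 isoforms can be set side by side in TPM, the deposited values that are scaled by transcript length as well as depth. Ptgs2 made up 2.10%, 2.55% and 2.20% of the summed TPM of both in Ctr 1, 2 and 3, and 2.89%, 91.9% and 77.0% in αGlu 1, 2 and 3. Ptgs2 was thus the minor isoform in 4 libraries and the major isoform in αGlu 2 and 3. The sum itself varied less. It was 91.6, 67.2 and 81.3 TPM in Ctr 1, 2 and 3 and 94.1, 55.8 and 52.2 TPM in αGlu 1, 2 and 3.

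**Figure D2:**
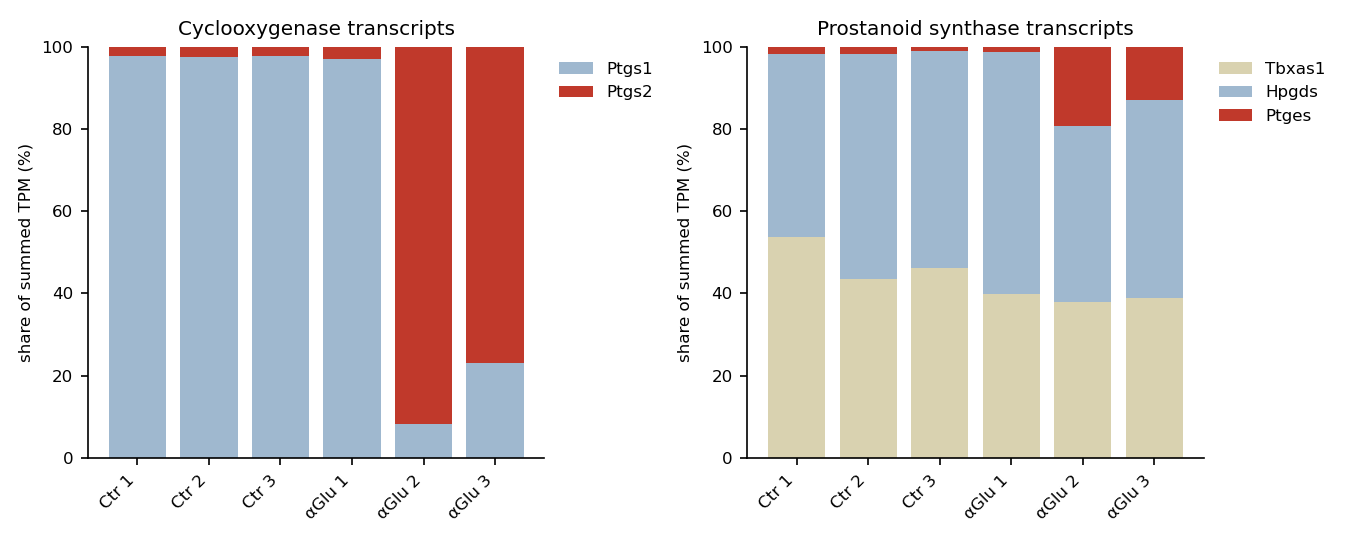
Stacked bars give, for each library, the share (%) of summed TPM held by Ptgs1 and Ptgs2 (left) and by the synthase genes Tbxas1, Hpgds and Ptges (right). Ptgs2 takes 91.9% and 77.0% of the left bars of αGlu 2 and 3 and at most 2.89% of the others, and Ptges takes 19.2% and 13.0% of the right bars of αGlu 2 and 3.

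Since both cyclooxygenases and Ptges differed most in αGlu 2 and 3, the 250 bases just upstream of their RefSeq start (GRCm38.p6) are shown 5′ to 3′ on the strand of the gene. The windows were searched on both strands for a TATA box (TATAAA), a STAT6 element (TTC and GAA, 4 bases apart), a cAMP-response core (TGACG), an AP-1 element (TGANTCA), an E-box (CACGTG) and an NF-kB element. A C/EBP element (TTGCNNAA) was added after the windows had been read. Capitals mark a match.
Ptgs2, chr1:150099781-150100030, + strand: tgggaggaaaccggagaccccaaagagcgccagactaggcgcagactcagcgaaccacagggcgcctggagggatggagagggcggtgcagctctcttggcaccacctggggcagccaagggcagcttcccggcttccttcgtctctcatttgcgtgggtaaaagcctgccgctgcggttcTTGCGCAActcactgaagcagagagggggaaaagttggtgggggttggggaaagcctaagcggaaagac
Ptgs1, chr2:36230176-36230425, + strand: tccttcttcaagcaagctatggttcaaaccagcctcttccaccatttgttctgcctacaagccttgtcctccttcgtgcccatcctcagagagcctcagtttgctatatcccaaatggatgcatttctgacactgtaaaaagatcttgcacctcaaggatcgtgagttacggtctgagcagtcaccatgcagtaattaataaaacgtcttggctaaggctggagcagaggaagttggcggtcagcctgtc
Ptges, chr2:30903298-30903547, - strand: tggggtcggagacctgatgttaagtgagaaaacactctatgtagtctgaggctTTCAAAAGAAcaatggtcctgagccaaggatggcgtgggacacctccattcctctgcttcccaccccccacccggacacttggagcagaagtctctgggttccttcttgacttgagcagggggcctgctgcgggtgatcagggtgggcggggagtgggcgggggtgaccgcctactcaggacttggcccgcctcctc
The Ptgs2 window held the C/EBP letters from 69 to 62 bases before the start, as did 9.56% of 32851 windows of this length. The Ptges window, which lies inside a longer GENCODE model of the gene, held the STAT6 letters from 197 to 188 bases before the start, as did 5.85% of windows. None of these letters was in the Ptgs1 window. Windows were at hand for 8 of the 10 members, not for Alox5ap and Alox15. Among the remaining 5, Tbxas1 held a STAT6 element (121 to 112 bases before the start), an AP-1 element (61 to 55) and TATA letters on both strands that overlap each other, Hpgds held a C/EBP element on the opposite strand (176 to 169), and Alox5, Lta4h and Ltc4s held none. TATA letters occurred in 12.4% of all windows, AP-1 letters in 6.75%, E-box letters in 6.02%, NF-kB elements in 7.25% and cAMP-response cores in 17.8%. The Tbxas1 window also lies inside the GENCODE span of its gene, and the windows of Hpgds and Ltc4s run partly into theirs. Letters outside these windows were not searched, so a window without a match says nothing of the rest of a promoter. A match of letters is no measurement of binding.

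Among the terminal synthases, Ptges was higher and Hpgds and Tbxas1 were lower in αGlu 2 and 3 than in Ctr. Ptges (ENSMUSG00000050737, chr2:30889471-30929863, - strand), the microsomal prostaglandin E synthase known to be induced together with Ptgs2, was at 3.63, 3.55 and 2.32 CPM in Ctr 1, 2 and 3. In αGlu 1, 2 and 3 it was at 2.92, 21.3 and 15.8 CPM. αGlu 1 lay inside the Ctr range, and the mean of αGlu 2 and 3 was 5.85 times that of Ctr. The log2 fold change was 2.08 ± 0.69 with all libraries (adjusted p = 0.168, edgeR quasi-likelihood) and 2.54 ± 0.22 without αGlu 1 (adjusted p = 0.000377). DESeq2 with all libraries gave 2.06 ± 0.66 (adjusted p = 0.0249).

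Hpgds (ENSMUSG00000029919, chr6:65117293-65144908, - strand), the hematopoietic prostaglandin D synthase, was at 164, 176 and 192 CPM in Ctr 1, 2 and 3 and at 219, 77.5 and 95.8 CPM in αGlu 1, 2 and 3. αGlu 1 was again above every Ctr library and αGlu 2 and 3 were below them. On the log2 scale the fold change was -0.44 ± 0.39 (adjusted p = 0.487, edgeR quasi-likelihood) with all libraries and -1.04 ± 0.13 (adjusted p = 0.00134) without αGlu 1. The latter is close to the limit of 1 for a call.

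Tbxas1 (ENSMUSG00000029925, chr6:38875404-39084585, + strand), thromboxane A synthase, was at 280, 198 and 238 CPM in Ctr 1, 2 and 3 and at 209.9, 97.1 and 109.9 CPM in αGlu 1, 2 and 3. αGlu 1 lay inside the Ctr range and αGlu 2 and 3 below it. Its log2 fold change was -0.78 ± 0.32 (adjusted p = 0.205, edgeR quasi-likelihood) with all libraries and -1.21 ± 0.16 (adjusted p = 0.00204) without αGlu 1. Its span overlaps Hipk2 on the opposite strand, which held 1719 to 6758 reads per library. The library kit marks strand, but the setting used to count reads is not given in the sources used here.

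In TPM, Ptges held 1.61%, 1.80% and 1.04% of the sum of the 3 synthase genes in Ctr 1, 2 and 3, and 1.29%, 19.2% and 13.0% in αGlu 1, 2 and 3. The larger part stayed with Hpgds and Tbxas1 in every library. The sum was 149 to 176 TPM in Ctr and 180, 90.1 and 102 TPM in αGlu 1, 2 and 3.

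**Figure D3:**
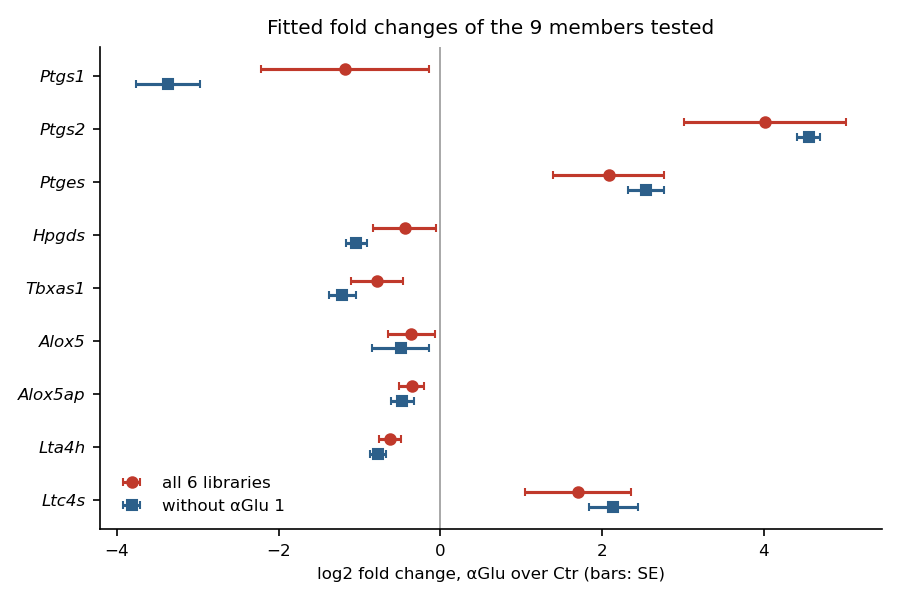
Points give the fitted log2 fold change of αGlu over Ctr for the 9 members tested, with bars for the SE, using all 6 libraries (red circles) or without αGlu 1 (blue squares). The values of each gene have the same sign in both fits, and the SE of Ptgs2 is 1.002 with all libraries and 0.14 without αGlu 1.

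In the leukotriene branch the genes of the first step differed little between the groups. Alox5 (ENSMUSG00000025701, chr6:116410077-116461178, - strand) was close to the limit of detection. It had 12, 13 and 12 reads in Ctr 1, 2 and 3 and 9, 12 and 11 reads in αGlu 1, 2 and 3, which is 0.545, 0.543 and 0.557 CPM and 0.516, 0.378 and 0.403 CPM. The αGlu libraries lay below the Ctr libraries, but the ratio of the groups, 0.763, had an exact 95% interval of 0.460 to 1.26 from the 37 and 32 reads. The log2 fold change was -0.36 ± 0.29 (adjusted p = 0.446, edgeR quasi-likelihood) and without αGlu 1 -0.49 ± 0.35 (adjusted p = 0.306), so a difference was not detectable at this depth.

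Alox5ap (ENSMUSG00000060063, chr5:149264767-149288153, + strand), the 5-lipoxygenase activating protein, was at 107, 105 and 141 CPM in Ctr 1, 2 and 3 and at 105, 83.9 and 86.3 CPM in αGlu 1, 2 and 3. αGlu 1 and Ctr 2 differed by less than their rounding here, so the groups are separated by almost nothing. A log2 fold change of -0.36 ± 0.15 (adjusted p = 0.217, edgeR quasi-likelihood) was fitted. Without αGlu 1 it was -0.47 ± 0.14 (adjusted p = 0.0439), which is under the fold limit. Per length, Alox5ap was far more abundant than its partner, with a TPM 559 to 730 times that of Alox5 in Ctr and 588 to 642 times in αGlu.

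Lta4h (ENSMUSG00000015889, chr10:93453411-93484875, + strand), leukotriene A4 hydrolase, was the member with the smallest unadjusted p. Its level was 98.1, 86.3 and 82.4 CPM in Ctr 1, 2 and 3, and 68.5, 52.4 and 52.2 CPM in αGlu 1, 2 and 3. All αGlu libraries, αGlu 1 included, lay below all Ctr libraries. The means were 88.9 ± 8.18 CPM in Ctr and 57.7 ± 9.36 CPM in αGlu (SD, n = 3). Its log2 fold change was -0.63 ± 0.14 (adjusted p = 0.156, edgeR quasi-likelihood). It was -0.77 ± 0.10 without αGlu 1 (adjusted p = 0.00152) and -0.63 ± 0.17 in DESeq2 with all libraries (adjusted p = 0.00789), and both are under the fold limit.

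Ltc4s (ENSMUSG00000020377, chr11:50236461-50238616, - strand), leukotriene C4 synthase, was low and differed in the other direction. It was at 0.999, 0.919 and 0.696 CPM in Ctr 1, 2 and 3 and at 0.688, 4.69 and 3.04 CPM in αGlu 1, 2 and 3. αGlu 1 had the lowest level of all libraries, from 12 reads, and αGlu 2 and 3 the highest, from 149 and 83 reads. Fitted log2 fold changes were 1.70 ± 0.66 with all libraries (adjusted p = 0.191, edgeR quasi-likelihood) and 2.14 ± 0.30 without αGlu 1 (adjusted p = 0.00254). DESeq2 with all libraries gave 1.69 ± 0.69 (adjusted p = 0.0974). An antisense gene, Gm26542, overlaps Ltc4s and held at most 7 reads in a library.

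The TPM of Lta4h was 16.3, 15.6 and 19.7 times that of Ltc4s in Ctr 1, 2 and 3, and 16.5, 1.85 and 2.85 times in αGlu 1, 2 and 3. Lta4h thus stayed the more abundant of the enzymes that use leukotriene A4 in every library, with a ratio in αGlu 2 and 3 below the others.

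Alox15 (ENSMUSG00000018924, chr11:70344152-70352031, - strand), which encodes 12/15-lipoxygenase, had 4, 5 and 3 reads in Ctr 1, 2 and 3 and 2, 2 and 0 reads in αGlu 1, 2 and 3. It was thus nearly undetected in these M2 Mφs, although the cells had received IL-4 and IL-13 and 9 of 11 other response genes were above 1 CPM in every Ctr library. The 0 reads of αGlu 3 allow a level of up to 0.110 CPM, taken as 3 reads. From 12 and 4 reads in all, the ratio of αGlu to Ctr was 0.294 (exact 95% interval 0.0692 to 0.971, for counting error alone). DESeq2, which tested the gene, gave a log2 fold change of -1.69 ± 1.25 (adjusted p = 0.396).

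With all libraries, the groups did not overlap for 4 of the 9 members tested. Ptgs2 was higher in αGlu, where 14.2% of all genes tested were, and Alox5, Alox5ap and Lta4h were lower, where 15.9% were, with Alox5ap apart by less than the rounding of its values and Alox5 resting on 9 to 13 reads. αGlu 1 was inside the Ctr range for 2 of the 9 members, Ptges and Tbxas1, and for 42.6% of all genes tested. When only αGlu 2 and 3 were set against Ctr, none of the 9 overlapped, with 3 higher (34.1% of all 12340 genes) and 6 lower (31.9%).

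Per transcript length the order of the members in Ctr was led by Alox5ap, at 249 ± 41.0 TPM (SD, n = 3). Hpgds (83.2 ± 5.46 TPM), Tbxas1 (79.3 ± 15.1 TPM) and Ptgs1 (78.2 ± 12.2 TPM) followed with overlapping ranges. Lta4h was at 44.0 ± 4.83 TPM. Ltc4s (2.60 ± 0.50 TPM), Ptges (2.43 ± 0.58 TPM) and Ptgs2 (1.81 ± 0.11 TPM) overlapped from neighbour to neighbour. Alox5 (0.403 TPM) and Alox15 (0.217 TPM) were last. In αGlu, Alox5ap was first again at 206 ± 20.7 TPM. Hpgds, Tbxas1, Ptgs1, Ptgs2 and Lta4h, with means from 64.5 to 30.1 TPM, could not be ordered, since each overlapped its neighbour. In αGlu 2 and 3 the level of Ptgs2 was 51.2 and 40.1 TPM, which was above that of Ptgs1 (4.52 and 12.01 TPM) and Lta4h (27.5 and 28.1 TPM).

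Several of these genes are also known from other blood cells, so the markers of those cells were read in the same libraries. Of 10 neutrophil markers, 3 were above 1 CPM on average, and the list summed to 108 to 160 CPM in Ctr and to 187, 539 and 609 CPM in αGlu 1, 2 and 3. Most of that was Csf3r, the G-CSF receptor (134 CPM in Ctr and 442 CPM in αGlu on average), while Ly6g was at 0 in every library and S100a9, Mpo, Ltf and Ngp were at most 0.0944 CPM in αGlu 2 and 3. S100a8 went the other way, at 0.909, 0.752 and 0.510 CPM in Ctr 1, 2 and 3 and at 0.574, 2.11 and 1.32 CPM in αGlu 1, 2 and 3. Of 10 mast cell and basophil markers, 2 were above 1 CPM. The list summed to 3.85 to 5.06 CPM in Ctr and 5.13 to 6.65 CPM in αGlu, with Mcpt4, Cma1 and Tpsb2 at 0. Of 8 megakaryocyte and platelet markers, 4 were above 1 CPM. They summed to 84.5 to 125 CPM in Ctr and to 77.9, 174 and 238 CPM in αGlu 1, 2 and 3. Within that list Pf4 was at 3.13 to 3.43 CPM in Ctr, whereas αGlu 1, 2 and 3 held 4.42, 149 and 209 CPM. Itgb3 was at 71.5 to 117 CPM in Ctr, whereas αGlu 1, 2 and 3 held 68.8, 19.6 and 23.6 CPM, and Itga2b and Gp1ba were not above their Ctr range. Eosinophil markers (2 of 7 above 1 CPM) summed to 18.9 to 25.5 CPM in Ctr and 8.89 to 21.4 CPM in αGlu, fibroblast markers (0 of 6) to 1.63 to 7.18 and 1.01 to 2.87 CPM, and lymphocyte markers (0 of 6) to at most 0.136 and 0.283 CPM. Csf3r and Pf4 were thus highest in αGlu 2 and 3, as were Ptgs2, Ptges and Ltc4s. So was Hdc of the mast cell and basophil list. It was at 0.182, 0.334 and 0.232 CPM in Ctr 1, 2 and 3 and at 0.688, 3.31 and 4.25 CPM in αGlu 1, 2 and 3. S100a8, and Gp6 at no more than 0.513 CPM, were highest there too, while most other markers of those lists were not. The part of such cells in these values was not tested.

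The rest of the eicosanoid pathway was read from a list of 54 further genes, of which 35 passed the low-count filter. None was called with all libraries, and 11 were higher and 8 lower at an unadjusted p under 0.05 (edgeR quasi-likelihood), where 12.7% and 11.9% of all genes tested were. Without αGlu 1, 9 were called higher and 7 lower of 37 tested, against 8.05% and 10.5% of all genes, and DESeq2 with all libraries called 8 higher and 5 lower, against 4.21% and 3.92%. Both counts of genes called higher include Fpr2, which passed the filter without αGlu 1 only through the libraries where it was high. The median log2 fold change was -0.10, beside 0.02 over all genes tested. The groups did not overlap for 4 of the 35 higher and 9 lower, against 14.2% and 15.9% of all genes tested, so the 4 are near the share of all genes. The adjusted p values of the 20 genes named by rule below, without Ptger3 and Fpr2, were 0.149 to 0.24 with all libraries.

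Arachidonate release and reacylation had 13 genes tested, of which 4 were called higher and 1 lower without αGlu 1. Pla2g4a, the cytosolic phospholipase A2 that frees arachidonic acid, was at 24.5, 23.6 and 32.7 CPM in Ctr 1, 2 and 3 and at 45.3, 101 and 92.0 CPM in αGlu 1, 2 and 3. Every αGlu library lay above every Ctr library, and the log2 fold change was 1.56 ± 0.32. Acsl1, an acyl-CoA synthetase, was at 36.6, 33.5 and 30.8 CPM in the Ctr libraries, and αGlu 1, 2 and 3 held 35.0, 641 and 443 CPM. Mgll, monoacylglycerol lipase, another source of arachidonate, was at 204, 131 and 113 CPM in Ctr 1, 2 and 3 and at 85.6, 8.47 and 7.26 CPM in αGlu 1, 2 and 3. αGlu 1 thus lay inside the Ctr range for Acsl1 and below it for Mgll, by less than αGlu 2 and 3. The acyltransferase Lpcat2 (log2 fold change 1.501 ± 0.598), Pla2g7 (1.28 ± 0.49), Acsl4 (0.68 ± 0.27) and Plaat3 (0.63 ± 0.24) were higher on average in αGlu, and Acsl3 (-0.80 ± 0.31) was lower. Without αGlu 1, Acsl3 and Plaat3 were not called, at adjusted p of 0.106 and 0.133 in edgeR's quasi-likelihood test, nor was Acsl4, whose log2 fold change of 0.94 was under the limit.

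Of the other prostanoid synthases, 5 were tested, with 1 called higher and 0 lower without αGlu 1. Prxl2b, a prostaglandin F synthase, was at 6.81, 4.76 and 4.78 CPM in Ctr 1, 2 and 3 and at 6.02, 14.7 and 14.5 CPM in αGlu 1, 2 and 3. Ptges2 was lower in each αGlu library, with a log2 fold change of -0.50 ± 0.14, and so was Akr1b3, an aldose reductase with prostaglandin F synthase activity, at -0.52 ± 0.16. The isoform Ptges therefore differed in the other direction from Ptges2 in αGlu 2 and 3. Ephx1, the microsomal epoxide hydrolase, 1 of 2 genes tested among other lipoxygenases and epoxide hydrolases, was at 81.1, 73.6 and 70.6 CPM in Ctr 1, 2 and 3 and at 33.0, 7.87 and 5.69 CPM in αGlu 1, 2 and 3. The fold change was -2.29 ± 0.68 on the log2 scale, with αGlu 1 between the other αGlu libraries and Ctr.

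Transport, conversion and inactivation had 8 genes tested, with 1 called higher and 4 lower of 9 tested without αGlu 1. Hpgd, the dehydrogenase that inactivates prostaglandin E2, had 75, 50 and 75 reads in Ctr 1, 2 and 3 and 30, 5 and 3 reads in αGlu 1, 2 and 3. It stood at -2.29 ± 0.99 on the log2 scale, and without αGlu 1 at -4.42 ± 0.45. Slco2a1, the prostaglandin uptake transporter, was low in all libraries and at -2.23 ± 0.86. Cyp4f18, which hydroxylates leukotriene B4, was at 17.5, 19.1 and 18.1 CPM in Ctr 1, 2 and 3 and at 11.2, 5.48 and 4.33 CPM in αGlu 1, 2 and 3, at -1.40 ± 0.35. Dpep2, a dipeptidase of cysteinyl leukotrienes whose reads the table splits over rows, was at -1.18 ± 0.31 in its main row. Abcc1, an exporter of leukotriene C4, was at 0.77 ± 0.27. Hpgd, Cyp4f18 and Dpep2 were lower in all αGlu libraries, and Abcc1 was higher in all of them. For Abcc1 the groups were barely apart, with αGlu 1 at 149.3 CPM beside 148.4 CPM in Ctr 1. αGlu 2 and 3 were at 300 and 279 CPM.

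Among the prostanoid receptors 4 were tested, with 1 called higher and 1 lower without αGlu 1. Ptger4, the EP4 receptor of prostaglandin E2, was at 6.996, 6.02 and 6.54 CPM in Ctr 1, 2 and 3 and at 6.37, 52.2 and 74.5 CPM in αGlu 1, 2 and 3. On the log2 scale it differed by 2.77 ± 0.82, and by 3.27 ± 0.17 without αGlu 1, so αGlu 1 stood with Ctr as it did for Ptges. The gene called lower was Ptger3, another receptor of prostaglandin E2, at 24, 24 and 20 reads in Ctr 1, 2 and 3 and 6, 0 and 6 reads in αGlu 1, 2 and 3, which is named after its values were seen. Among the leukotriene and lipoxin receptors 3 were tested, with Cysltr1 and Fpr2 called higher of 4 tested without αGlu 1. Cysltr1 was at 1.05 ± 0.35 and Cysltr2 at 0.65 ± 0.21 on the log2 scale, and Cysltr2 was the only one of the pair whose αGlu libraries all lay above Ctr. Fpr2, a formyl peptide receptor that also binds lipoxin A4, did not pass the filter with all libraries and was chosen after its values were seen. It had 5, 4 and 3 reads in Ctr 1, 2 and 3 and 0, 2986 and 2237 reads in αGlu 1, 2 and 3. Without αGlu 1 it passed the filter only through αGlu 2 and 3, where it was high, so its call carries no weight.

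**Figure D4:**
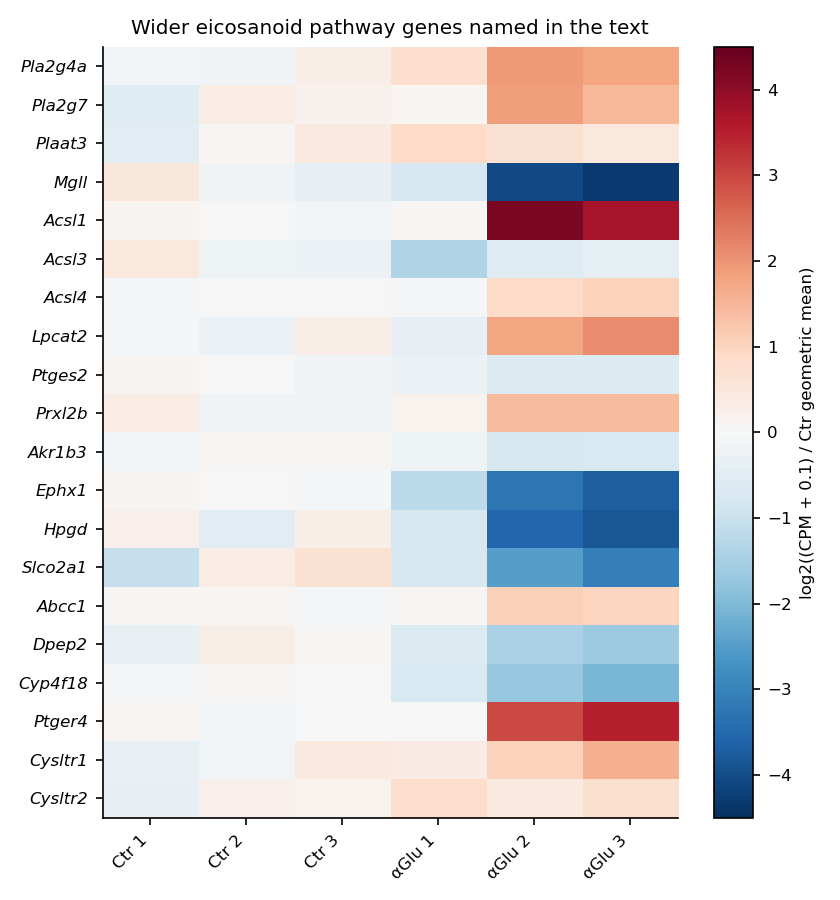
The map gives, for the 20 further pathway genes named in the text, log2 of CPM + 0.1 minus its mean over Ctr (colour scale) in each of the 6 libraries (columns). Acsl1 and Ptger4 are the darkest red and Mgll, Hpgd and Ephx1 the darkest blue in αGlu 2 and 3, while the column of αGlu 1 is paler for each of these.

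For each member, the genes most like it were sought by the root mean square difference of centred log2 CPM over the 6 libraries, among 8577 genes whose mean log2 CPM reached 3. Nearest to Ptgs2 were Tma16 (0.23), Acsl1 (0.26) and Tagap (0.36). Nearest to Ptgs1 were Ston2 (0.35), the iron exporter gene Slc40a1 (0.42) and Gask1b (0.43). Both triplets followed the arrangement of their member, with αGlu 1 near Ctr, which the choice by likeness over these same libraries brings about. Tma16, for example, was at 14.99 to 17.1 CPM in Ctr, whereas αGlu 1, 2 and 3 held 19.2, 433 and 432 CPM. Ptges was nearest to Ppp1r12b (0.13), Foxp4 (0.17) and Map4k4 (0.19), and Ltc4s to Acpp (0.14), Osbpl3 (0.18) and Gpr132 (0.18). Hpgds was nearest to Dhrs3 (0.08), Ehd4 (0.09) and Inpp1 (0.09), and Tbxas1 to Abi2 (0.05), Aldh9a1 (0.09) and Rgs10 (0.09). For members with small differences many genes come close, as Foxn2, Clcn4 and Zfp715 (each 0.02) did for Alox5. Alox5ap was nearest to Bphl (0.05), Igbp1 (0.07) and Mindy3 (0.07), and Lta4h had Wdr1 (0.05) and Mbtd1 (0.05) among its nearest. No member was among the nearest 3 of another, though Ptges, Alox5 and Ltc4s were themselves below the level required.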

How the data were processed

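Stranded mRNA libraries of 6 samples were sequenced by the authors and processed with the QIAGEN RNA-seq Analysis Portal; per the labels the genome build was GRCm38, and the aligner is not given in the sources used here. The authors deposited raw counts per gene, not normalized, and the deposited TPM values are scaled by gene length and depth. The table also holds RPKM and CPM columns, which were not used. CPM given here are counts scaled to library sizes adjusted by the trimmed mean of M-values (TMM).

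Low counts were filtered in R 4.3.3 by filterByExpr (edgeR 4.0.16) at a minimum count of 10 and a minimum total of 15, and all remaining genes entered a quasi-likelihood model of group alone. Two-sided p-values were adjusted by Benjamini-Hochberg over all genes tested. A call took an adjusted p under 0.1 together with a log2 fold change beyond 1 in either direction. Standard errors were derived from the F statistic. The p-values set the difference between the groups against the spread between these libraries. Alternatives were DESeq2 1.42.0, limma-voom and limma on log2(TPM + 1) (limma 3.58.1), relative log expression (RLE) factors, library size alone, other filters and thresholds, the replicate number as a block, and each library left out in turn. The models were also run on simulated counts with known changes. The spread of those counts was taken from the Ctr libraries alone, so no simulated library stood apart as αGlu 1 did.

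The members and lists were chosen with earlier results of these data known. By rule the text names all members, further pathway genes with a mean of at least 1 CPM and an unadjusted p under 0.05 or no overlap between groups, the 3 genes most like each member, and markers of other cells. Of the genes most like a member, 1 is not reported here. Symbols and positions follow GENCODE M21 (GRCm38); upstream sequences are from RefSeq GRCm38.p6, and the ASO sequences from the oligonucleotide list of the study.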

Additional observations from a re-analysis of the deposited data

How the results depend on the processing

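The number of members called was 0 under all alternatives other than DESeq2 (3) and leaving out a library, where it was 0 to 6, with 6 only without αGlu 1. For the wider pathway, with Fpr2 counted, it was 13 in DESeq2 and 0 to 16 with a library left out, again with 16 only without αGlu 1 and 0 otherwise. Over all genes it was 0 with all libraries, 1117 in DESeq2, 2 with limma on log2(TPM + 1) and 0 to 2290 with a library left out, with 2290 only without αGlu 1. The number of members whose groups did not overlap was 4, and 4 to 9 with a library left out, with 9 only without αGlu 1, where fewer libraries make separation easier. It was 3 to 5 under the other scalings and filters. Of 142 values of single members under an alternative, 133 kept their direction and stayed uncalled, 9 were newly called and 0 reversed. Some of the 133 still crossed a single limit, such as Lta4h that of the adjusted p and Ptgs1 that of the fold change. The log2 fold change ranged from 2.83 to 4.55 for Ptgs2, from 1.49 to 2.54 for Ptges, from 1.12 to 2.14 for Ltc4s, from -3.37 to -0.65 for Ptgs1 and from -0.77 to -0.53 for Lta4h. Same-numbered libraries of the groups deviated together at r of 0.076, 0.065 and 0.154, and each library correlated best with its own number. These r were taken after centring each group, where αGlu 1 stood apart, so they cannot settle whether the numbers mark pairs. The study used a paired t test for the fragment after this transfection but states no pairing for these libraries. The main fit did not treat the numbers as pairs. With the replicate number as a block, 0 members, 0 wider pathway genes and 17 genes in all were called. The cause of these differences was not tested. Depth limits Alox5 and Alox15, with at most 13 and 5 reads in a library.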
